A study of Oryctolagus cuniculus with 16 samples.

Results

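Calcium drives the contraction of vascular smooth muscle, and 6 genes that release, pump back or admit it were followed in rabbit vein grafts: RYR2, RYR3, ATP2A2, PLN, CACNA1C and CACNB1. All probes whose transcript accession maps to 1 of these genes were taken, whatever their values, which gave 27 of the 43603 probes on the array. RYR2 and RYR3 had 4 probes each, ATP2A2 had 5, PLN had 7, CACNB1 had 6 and CACNA1C had 1. A probe was tested when the scanner software called it well above background in each array of 1 group or more, which held for 35763 probes and for all 27 of these genes.

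Total RNA of male rabbit vein tissue was labelled with Cy3 and hybridized to Agilent one-colour arrays. The 3 groups were grafts removed 1 day after surgery (6 arrays), grafts removed 7 days after surgery (6 arrays) and a control group with sham surgery (4 arrays, O1 to O4). The labels give neither strain nor age, and they do not say whether replicate arrays came from separate animals. The comparisons ask how the vein wall differs from sham tissue on either day and how it changes between day 1 and day 7.

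Arrays of a graft group fell into 2 sets of 3 that shared a position on the slide, and the arrays within a set differed by less than the noise between spots of 1 probe. Each set was averaged and counted as 1 sample, so that day 1 and day 7 had 2 samples each and sham surgery had 4. The 2 samples of a graft group were close to each other as well, with a variance of their array differences of 1.22 times (day 1) and 1.42 times (day 7) the spot noise on average. The p-values therefore measure a spread that may be technical, and each comparison was also run with each graft group as 1 sample and the sham arrays as 2. That fit takes its whole error from the 2 sham samples and assumes that grafts vary like them, so that it does not measure the spread between grafts. Among the sham arrays, O1 and O2 differed from O3 and O4 with an SD of 0.73 to 0.74 on the log2 scale, against 0.21 to 0.26 within these pairs. The sham arrays were scanned apart from all graft arrays, so that in any comparison with sham the scan and the surgery cannot be told apart. Day 1 and day 7 arrays shared 3 scans, and within-scan values are given for that comparison. Each of these scans holds arrays of the same day 1 and day 7 samples. The 3 values are therefore repeat readings and not independent repeats of the difference. In each of these scans, day 1 arrays lay at positions 1 and 2 and day 7 arrays at positions 3 and 4. Within a scan, day and slide position therefore cannot be told apart, and the part of position was not tested. The unscaled day 7 arrays were also brighter, with 75th-percentile intensities of 2488 to 2831, against 863 to 1023 on day 1.

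In muscle, the sarcoplasmic reticulum is the calcium store. L-type voltage-gated channels in the cell membrane admit calcium, and ryanodine receptors in the store membrane release more of it. The SERCA pump returns calcium to the store, and phospholamban holds the pump back until it is phosphorylated. In smooth muscle, ryanodine receptors give local releases that act on potassium channels of the membrane, in addition to their part in contraction.

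Values are quantile-normalized signal intensities on a log2 scale, and a difference of 1 is a doubling. A probe was called when its Benjamini-Hochberg adjusted p in limma was below 0.05 and its log2 fold change was at least 1 in size. On day 7, 21 of the 27 probes fell against sham and 1 rose, where 15.4% of all tested probes fell and 17.5% rose. On day 1, 22 fell and 1 rose, where 24.6% of all tested probes fell and 25.2% rose. The median log2 fold change of the 27 probes was -3.67 on day 7 and -3.52 on day 1, and that of all tested probes was 0.04 and 0.12. Both comparisons use the same sham arrays. The 6 genes were chosen with earlier results of these data known, and probes of the same gene are not independent. The counts therefore describe these genes and do not test whether they fell more often than others. All 4 RYR2, all 4 RYR3, all 7 PLN probes and the CACNA1C probe fell on both days, CACNB1 fell in 6 probes on day 1 and in 5 on day 7, and the 1 probe that rose on each day was of ATP2A2. A_04_P099907 of RYR2 (both days) and the CACNA1C probe (day 1) passed the filter without being well above background on any graft array of that day. Without them, 20 of 26 probes fell on day 7 and 20 of 25 on day 1.

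**Figure D1:**
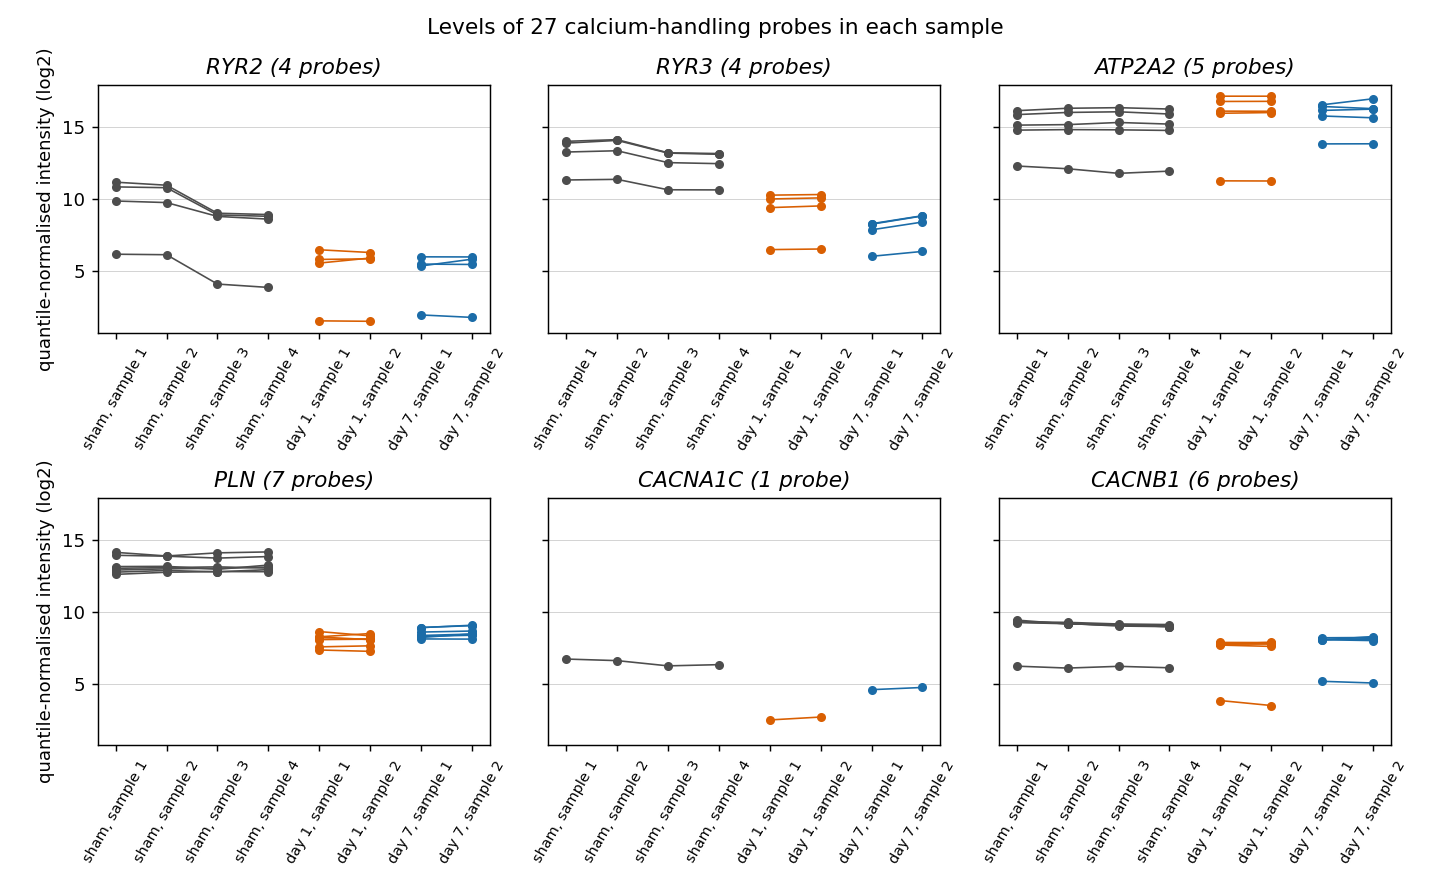
Quantile-normalized log2 intensity (vertical axis) of every probe of the 6 genes in each of the 8 samples (horizontal axis; sham grey, day 1 orange, day 7 blue). Each point is a probe in a sample, and lines join the values of 1 probe within a group; in RYR2, RYR3 and PLN all graft points of a probe lie below all of its sham points, and in RYR2 sham samples 1 and 2 lie above samples 3 and 4.

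RYR2 encodes the ryanodine receptor best known from heart muscle. Its brightest probe, A_04_P003002 (NM_001082757), read 11.15 and 10.94 in sham samples 1 and 2 and 9.0 and 8.90 in sham samples 3 and 4. The same probe read 6.46 and 6.27 in the day 1 samples and 5.97 and 5.96 in the day 7 samples. All graft samples were therefore below the lowest sham sample, and the sham group itself was split.

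This RYR2 probe fell 12.4-fold on day 1 (log2 fold change -3.63, SE 0.70, limma adjusted p = 0.00236) and 16.4-fold on day 7 (log2 fold change -4.03, SE 0.70, adjusted p = 0.00202). A_04_P003001 had log2 fold changes of -4.0 on day 1 and -4.36 on day 7, and A_04_P099908 of -3.53 and -3.67. The dimmest RYR2 probe, A_04_P099907, was not well above background on any graft array, so that its measured fold change is not given. Low graft readings were raised to the lowest well-above-background value of their array. Its sham mean of 5.05 was then at least 2.60-fold above the day 7 level. The same step gave 5.76-fold for day 1, which is not a strict bound. On arrays A1, A3 and A5 its readings were not well above background but exceeded that value. The other 3 RYR2 probes were called on both days with measured values in all groups. With each graft group as 1 sample and the error from sham alone, no RYR2 probe was called on day 7 (adjusted p = 0.0563 to 0.155) and 1 on day 1, A_04_P099908 (adjusted p = 0.0318). With the normexp background correction the fall of A_04_P003002 was smaller, at -2.55 on day 1 and -2.69 on day 7. A_04_P099907 was not called with it, at -0.48 (adjusted p = 0.053) and -0.47 (adjusted p = 0.0691). The fold figures given for A_04_P099907 therefore hold only for the scanner software's own background correction.

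Between day 1 and day 7, none of the 3 RYR2 probes with measured values on both days was called in limma, and 0 of them had an unadjusted p below 0.05, with log2 differences of -0.40 to -0.14. For A_04_P099907 no difference can be given. Within each of the 3 scans, A_04_P003002 was lower on day 7 than on day 1 by a log2 difference of -0.43 to -0.36. The fit shares 1 error over the 3 groups, and without O1 and O2 the smallest adjusted p of these differences was 0.0054 (A_04_P003001), at the same log2 difference of -0.36. Scaling each array to its 75th percentile gave -1.21 to -1.0 for the 3 probes, also without a call (adjusted p = 0.0959 to 0.217).

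The split of the sham group was wide in RYR2 and narrower in the other genes. Sham samples 1 and 2 exceeded samples 3 and 4 by 2.10, 1.97, 1.11 and 2.17 on the log2 scale in the 4 RYR2 probes and by 0.71 to 0.88 in the RYR3 probes. Over all tested probes the median size of this difference was 0.29, and 10.6% of probes differed by at least 1. The PLN probes differed by -0.12 to 0.11 and the CACNB1 probes by 0.00 to 0.25. CACNA1C differed by 0.38 and the ATP2A2 probes by -0.11 to 0.34.

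**Figure D2:**
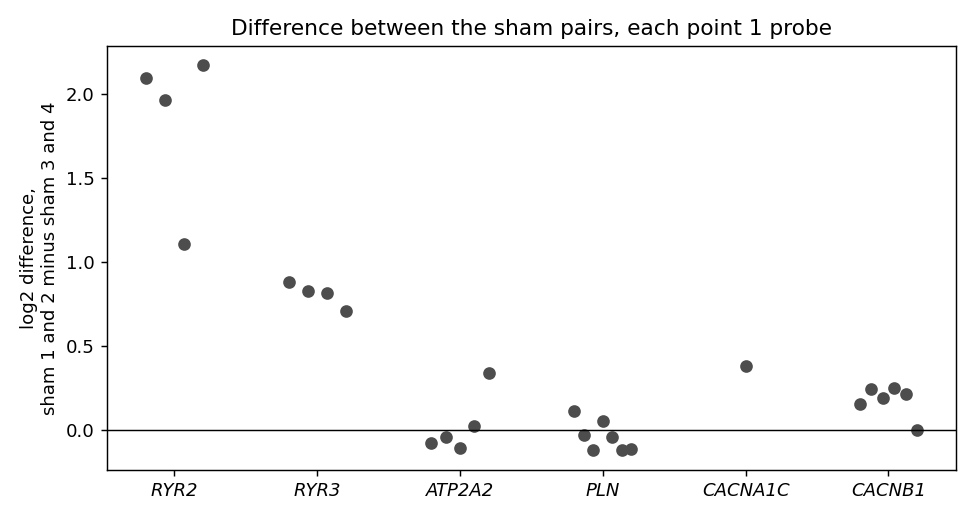
Log2 difference between the mean of sham samples 1 and 2 and the mean of sham samples 3 and 4 (vertical axis) for every probe of the 6 genes (horizontal axis), each point 1 probe. The 4 RYR2 points lie between 1.11 and 2.17 and the 4 RYR3 points between 0.71 and 0.88, above all points of the other 4 genes.

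Some cell type markers moved with the sham split, and others differed less. The mean of the fibroblast markers ran from 18.24 to 18.35 over the sham samples. That of the endothelial markers ran from 6.06 to 6.31, and that of the striated muscle markers from 6.21 to 6.64. The mean log2 value of 4 smooth muscle markers was 16.5 and 16.6 in sham samples 1 and 2 and 15.5 in both of the others. The mean of 3 adipocyte markers ran the other way, at 7.93 and 8.03 against 10.8 and 10.7, and that of 2 nerve markers was 9.17 and 9.21 against 11.3 in both. The mean of 5 macrophage and neutrophil markers was also lower in samples 1 and 2, at 10.05 and 10.04 against 11.15 and 11.11. Their part in the RYR2 split was not tested. Against O3 and O4 alone the 4 RYR2 probes still fell, with a median of -2.78 on day 1 and -3.05 on day 7, and against O1 and O2 alone the medians were -4.65 and -4.68.

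RYR3, the other ryanodine receptor measured, is found in smooth muscle and brain among other tissues. Its brightest probe, A_04_P002346 (NM_001082762), read 13.99, 14.11, 13.19 and 13.14 in the 4 sham samples. It read 10.25 and 10.30 in the day 1 samples and 8.24 and 8.81 in the day 7 samples. The 3 groups did not overlap, and the order was sham, day 1, day 7 from high to low.

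The RYR3 probe A_04_P002346 fell 10.1-fold on day 1 (log2 fold change -3.33, SE 0.33, adjusted p = 7.39e-05) and 34.0-fold on day 7 (log2 fold change -5.09, SE 0.33, adjusted p = 1.70e-05). A_04_P002347 and A_04_P002348 had log2 fold changes of -3.52 and -3.44 on day 1 and of -5.0 and -4.77 on day 7. The dimmer A_04_P100542 had already fallen by 4.48 on day 1 and stood at -4.80 on day 7. In the fit with 1 sample per graft group and the error from sham alone, the 4 adjusted p-values lay between 0.0192 and 0.0272 on day 1 and between 0.0365 and 0.0377 on day 7.

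From day 1 to day 7 the set as a whole was mixed: 3 of the 27 probes fell and 4 rose, where 18.9% of all tested probes fell and 21.1% rose. All 3 that fell were RYR3 probes. The log2 fold change between the days was -1.75 for A_04_P002346 (SE 0.38, adjusted p = 0.00574), -1.48 for A_04_P002347 (adjusted p = 0.0101) and -1.33 for A_04_P002348 (adjusted p = 0.0144). The within-scan difference of A_04_P002346 was -1.76 to -1.75 over the 3 scans. The probe A_04_P100542 had a log2 difference of -0.32 (adjusted p = 0.383), and under scaling to the 75th percentile it was called as well, at -1.05. Without day 7 sample 1, A_04_P002347 (adjusted p = 0.0681) and A_04_P002348 (adjusted p = 0.0902) were no longer called, and A_04_P002348 also lost its call without either day 1 sample (adjusted p = 0.0517 and 0.067). With each graft group as 1 sample, the days could only be compared through the error of the sham samples, and limma called 0 of 35763 probes (12223 at an unadjusted p below 0.05), which says nothing of the spread between grafts.

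PLN encodes phospholamban, the small membrane protein that inhibits the SERCA pump. Its probe A_04_P002882 (NM_001082621) read between 13.71 and 13.90 in the sham samples. It read 8.24 and 8.47 in the day 1 samples and 8.89 and 9.02 in the day 7 samples. The sham samples were close to each other, and both graft groups lay far below them.

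All 7 PLN probes fell on both days. A_04_P002882 fell on day 1 (log2 fold change -5.46, SE 0.11, adjusted p = 9.73e-08) and 29.1-fold on day 7 (log2 fold change -4.86, SE 0.11, adjusted p = 2.80e-07). Over the 7 probes the fall ranged from -6.76 to -4.58 on day 1 (median -5.04) and from -5.08 to -4.43 on day 7 (median -4.66). The fit with 1 sample per graft group and the error from sham alone gave an adjusted p of 0.0192 on day 1 and 0.036 on day 7 for all 7.

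Between day 1 and day 7, the log2 differences of the 7 PLN probes were 0.15 to 1.68, and 1 of them was called. The called probe, A_04_P002881, read between 13.86 and 14.14 in the sham samples, 7.33 and 7.24 on day 1, and 8.88 and 9.05 on day 7. It rose from day 1 to day 7 by 1.68 (SE 0.13, adjusted p = 4.63e-05), with 1.67 to 1.69 within the 3 scans, and it also had the largest fall of the 7 on day 1. The other 6 PLN probes differed by 0.15 to 0.60. Under scaling to the 75th percentile the sign of A_04_P005016 and A_04_P005017 turned, to -0.0144 and -0.0021.

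ATP2A2 encodes SERCA2, the calcium pump that phospholamban inhibits. Its brightest probe, A_04_P000641 (NM_001089321), read 16.12, 16.28, 16.33 and 16.23 in the sham samples. It read 17.12 in both day 1 samples and 16.41 and 16.26 in the day 7 samples. Day 1 was above sham without overlap, whereas the day 7 values lay within or near the sham range.

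The 4 bright ATP2A2 probes were higher than sham on day 1 by similar amounts. A_04_P000643 rose 2.28-fold (log2 fold change 1.19, SE 0.08, adjusted p = 1.38e-05), from 14.74 to 14.80 in sham to 15.94 and 15.99. The other 3 had log2 fold changes of 0.88, 0.82 and 0.89 with adjusted p-values of 1.42e-04, 0.00106 and 8.89e-05, below the fold threshold. On day 7 the log2 fold changes of A_04_P000642, A_04_P000643 and A_04_P000644 were 0.79, 0.91 and 0.99, also below it, and that of A_04_P000641 was 0.09 (adjusted p = 0.44).

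The dimmest ATP2A2 probe followed another course. A_04_P062222 read 12.28, 12.08, 11.77 and 11.92 in the sham samples, 11.25 and 11.23 on day 1, and 13.81 and 13.82 on day 7. Day 1 was below and day 7 above all sham samples. It rose on day 7 by 1.80 against sham (SE 0.15, adjusted p = 4.89e-05) and by 2.57 against day 1 (SE 0.17, adjusted p = 2.12e-05), and its day 1 log2 fold change of -0.77 was not called. Within the 3 scans the difference between the days was 2.57 to 2.58.

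All 5 probes carry the same transcript accession, so that nothing in the files tells which part of the transcript each one reads. Their differences from each other are therefore differences between probes of 1 named transcript. SERCA2 shares much of its sequence with SERCA1, whose gene ATP2A1 rose on day 1, and the part of such cross-hybridization was not tested. With each graft group as 1 sample, no ATP2A2 probe was called on either day, with a smallest adjusted p of 0.0522 on day 1 (A_04_P000643) and 0.0623 on day 7 (A_04_P062222).

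The size of the ATP2A2 differences depended on how the arrays were scaled. When each array was scaled to its 75th percentile instead, 4 of the 5 probes were called higher on day 1 and all 5 on day 7. Their median log2 fold changes were 1.26 and 1.94. Of all 35763 tested probes, 12509 were called higher on day 1 under this scaling and 6571 on day 7. This scaling moved the median of all tested probes to 0.47 on day 1 and to -0.01 on day 7, so that relative to all probes the ATP2A2 medians were 0.79 and 1.95. For the 2016 tested probes with a mean of at least 15, the median on day 7 was -0.06 with quantile normalization and 0.73 with the other scaling. The direction between day 1 and day 7 also turned for 3 ATP2A2 probes under this scaling, from -0.79, -0.03 and -0.28 to 0.10, 0.85 and 0.53. No ATP2A2 probe was called lower against sham under either scaling.

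**Figure D3:**
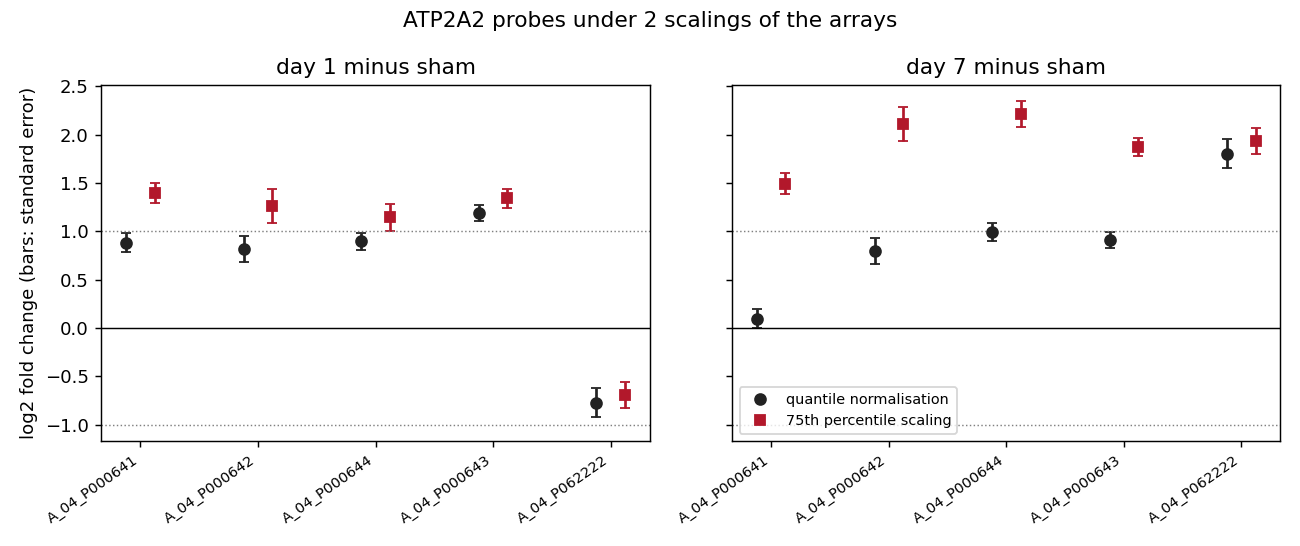
Log2 fold change against sham (vertical axis, bars give the standard error) of the 5 ATP2A2 probes (horizontal axis) on day 1 and day 7, with quantile normalization (black circles) and with scaling to the 75th percentile of each array (red squares). Dotted lines mark the fold threshold; on day 7 all 5 red squares are above it and 1 black circle is.

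The pump and its inhibitor can be compared within each sample. The mean of the 7 PLN probes minus the mean of the 5 ATP2A2 probes, set to 0 at the sham mean, was -5.80 and -5.84 in the day 1 samples and -5.65 and -5.58 in the day 7 samples. In the sham samples it lay between -0.04 and 0.10. With scaling to the 75th percentile the values were -5.78 and -5.84 on day 1 and -6.57 and -6.55 on day 7. All graft values lay far below all sham values under both scalings, and this difference was not tested.

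CACNA1C encodes the pore of the L-type calcium channel of smooth and heart muscle, and it had a single probe, A_04_P016566 (NM_001136522). It read 6.70, 6.59, 6.23 and 6.31 in the sham samples. On day 1 it read 2.47 and 2.67 and was not well above background on any of the 6 arrays, and on day 7 it read 4.58 and 4.73 and was well above background on all 6. Day 7 lay between sham and day 1 without overlap.

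On day 1, CACNA1C had a measured log2 fold change of -3.88 (adjusted p = 1.16e-06). It was 11-fold lower than sham with low readings raised as for RYR2, which is not a strict bound. On arrays A1, A3 and A5 its readings were not well above background but exceeded the array's lowest well-above-background value. On day 7, CACNA1C fell 3.50-fold against sham (log2 fold change -1.81, SE 0.16, adjusted p = 7.57e-05). It was 3.15-fold higher than on day 1 with the same step, and the measured difference was 2.08 (adjusted p = 8.11e-05). The measured within-scan differences were 1.87 to 2.36. This low signal depended on the background correction. With the normexp correction the differences shrank to -0.88 on day 1, -0.61 on day 7 and 0.27 between the days, all below the fold threshold. Scaling to the 75th percentile kept both falls but left 0.87 between the days, and with each graft group as 1 sample the day 7 fall (adjusted p = 0.0647) and the rise between the days (adjusted p = 0.0725) were not called.

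CACNB1 encodes a beta subunit that binds such pore subunits inside the cell and is best known from skeletal muscle. Its brightest probe, A_04_P002134 (NM_001082279), read 9.29, 9.25, 9.14 and 9.1 in the sham samples, 7.85 in both day 1 samples, and 8.02 and 8.27 on day 7. The groups did not overlap, with day 7 between sham and day 1.

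All 6 CACNB1 probes fell on day 1 and 5 of 6 on day 7. A_04_P002134 fell 2.54-fold on day 1 (log2 fold change -1.34, SE 0.11, adjusted p = 2.65e-05) and 2.07-fold on day 7 (log2 fold change -1.05, SE 0.11, adjusted p = 1.62e-04). On day 7 the 6 log2 fold changes ran from -1.15 to -0.93, so that they lay at the fold threshold, and the probe outside it was A_04_P002133 (-0.93, adjusted p = 4.40e-04). This count was 2 of 6 without O1 and O2, 6 of 6 without O3 and O4, and 0 of 6 with the normexp correction, where the adjusted p-values were 3.42e-05 to 4.13e-04 and the differences -0.89 to -0.41. With each graft group as 1 sample it was 0 of 6 on day 7 (adjusted p = 0.102 to 0.142) and 5 of 6 on day 1. On day 1 the normexp correction left 3 of 6 called, at -1.14 to -0.69 over the 6 probes.

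The dimmest CACNB1 probe, A_04_P050637, read 6.21, 6.07, 6.20 and 6.09 in the sham samples, 3.82 and 3.47 on day 1, and 5.16 and 5.04 on day 7. It was well above background on 3 of the 6 day 1 arrays and on all arrays of the other groups. It rose from day 1 to day 7 by 1.45 (adjusted p = 1.15e-04), with 1.30 to 1.64 within the 3 scans, and this was not called under scaling to the 75th percentile (0.38) or with the normexp correction (0.28). Its day 1 value of -2.50 against sham was -0.69 with normexp. The other 5 probes differed between the days by 0.26 to 0.45 and were not called, and 2 of them, A_04_P002131 and A_04_P002132, turned to -0.0128 and -0.0379 under that scaling.

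**Figure D4:**
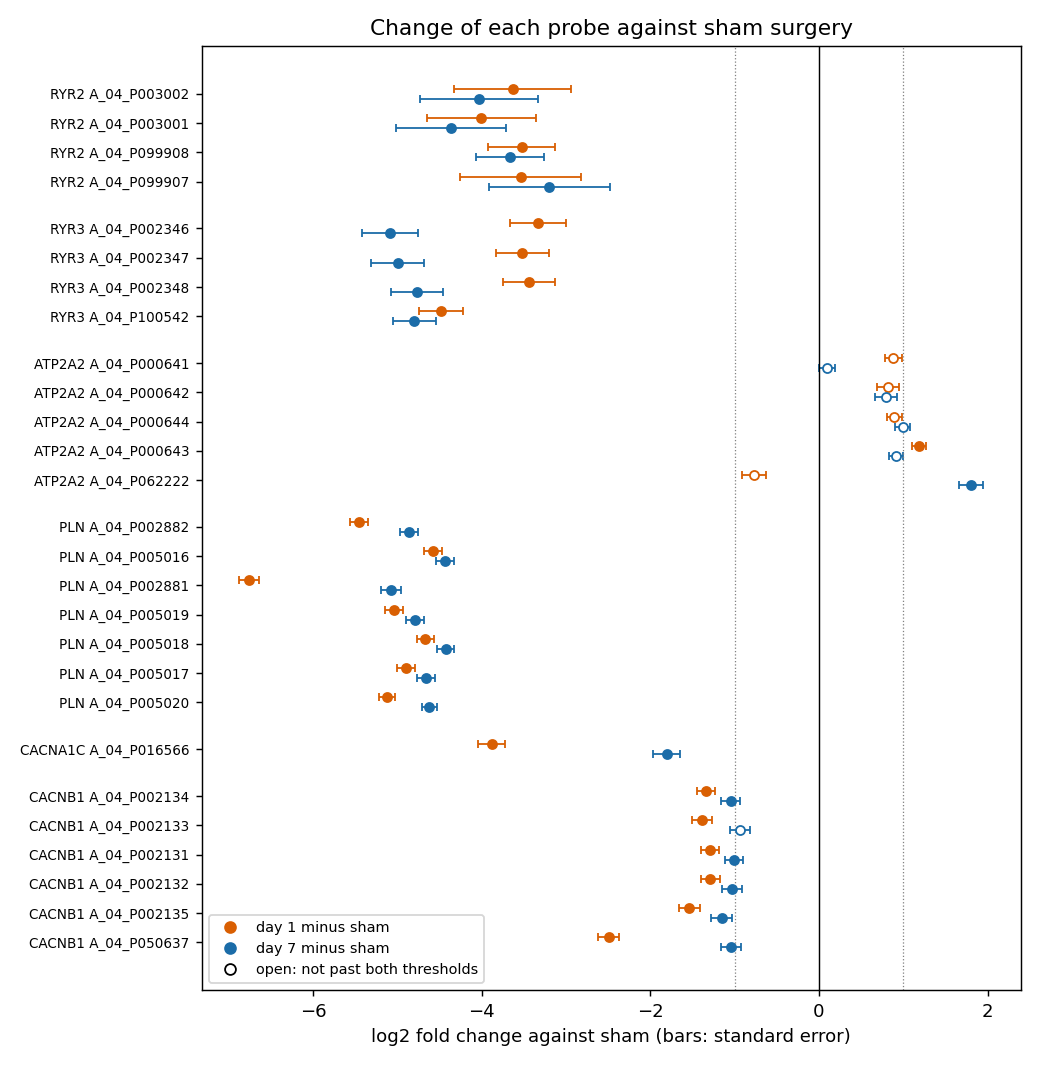
Log2 fold change against sham (horizontal axis, bars give the standard error) of each of the 27 probes on day 1 (orange) and day 7 (blue), grouped by gene. Filled points passed both thresholds and dotted lines mark the fold threshold; the points of RYR2, RYR3, PLN, CACNA1C and CACNB1 are all below 0, and 9 of the 10 ATP2A2 points are above it.

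The rest of the calcium-handling machinery was read from a list of 74 other genes, of which 30 had a named probe and 28 were tested, each by its brightest probe. On day 7, 4 of the 28 rose and 8 fell, with a median log2 fold change of -0.27. On day 1, 10 rose and 7 fell, with a median of 0.34. Over the 2002 named genes taken in the same way, 18.8% rose and 16.7% fell on day 7, and 25.5% rose and 25.6% fell on day 1. From day 1 to day 7, 14 of the 28 fell and 2 rose (median -1.01), against 20.9% and 20.5% of the named genes.

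Among proteins that sit at the calcium store, the calsequestrin isoforms went opposite ways. CASQ2, the calsequestrin of heart and smooth muscle that binds calcium inside the store, fell in all 3 of its probes, with log2 fold changes of -3.59 on day 1 and -5.55 on day 7. CASQ1, the calsequestrin of skeletal muscle, rose in all 5 of its probes, by 5.03 on day 1 and by 3.57 on day 7 in the brightest, which was well above background on 2 of the 4 sham arrays and on all graft arrays. JPH1, a junctophilin that ties the store to the cell membrane, fell in its brightest probe, with log2 fold changes of -2.89 on day 1 and -4.58 on day 7 and with 2 and 4 of its 7 probes called.

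Further store proteins of striated muscle rose on day 1. HRC, a histidine-rich calcium-binding protein, rose by 3.24, SRL, which encodes sarcalumenin, by 3.22, and TRDN, which encodes the anchor protein triadin, by 1.23 in its brightest probe and by up to 5.22 over its 3 probes. On day 7, HRC was not called (0.60), SRL was higher by 1.5, and TRDN stood at -0.03 in its brightest probe, with 1 of 3 probes called higher at 1.76. FKBP1B, which encodes a binding partner of ryanodine receptors, rose by 2.51 on day 1 in its brightest probe, but of its 9 probes 3 rose and 5 fell. RYR1, the ryanodine receptor of skeletal muscle, was not called on either day (0.68 and -0.09), nor were JPH2 and CALR.

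Of the other pumps, ATP2A1, the SERCA pump of fast skeletal muscle, rose by 7.26 on day 1 (SE 0.36, adjusted p = 2.44e-06) and by 1.49 on day 7, and all 9 of its probes were called on both days. SLN, which encodes sarcolipin, an inhibitor of that pump, rose by 2.56 on day 1 in its brightest probe and by up to 6.59 over its 5 probes. On day 7 its brightest probe had a log2 fold change of -0.78 without a call. ATP2B1, a calcium pump of the cell membrane, rose by 1.15 on day 1 and by 1.59 on day 7 in its brightest probe. Over its 3 probes the rise was up to 3.52 on day 1 and up to 1.71 on day 7. SLC8A1, the sodium-calcium exchanger, was not called in its brightest probe on either day (-0.32 and 0.42), and 1 of its 6 probes fell on day 1 (-1.79).

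Of the voltage-gated channel subunits, CACNB2 fell in all 6 of its probes on both days, with log2 fold changes of -1.21 and -1.19 in its brightest probe. On day 1 the 6 probes ran from -5.46 to -1.21, and 4 of them were called higher on day 7 than on day 1, by up to 4.15. CACNB3, the beta subunit known from smooth muscle, fell in its brightest probe (-1.86 and -1.81), and only 1 of its 2 probes was called. The other stood at 0.22 on day 1 and -0.43 on day 7. The pore genes CACNA1B and CACNA1E rose on day 1 by 1.77 and 1.64 and were not called on day 7 (0.25 and -0.13), and the other CACNA1E probe stood at 0.05 on day 1. CACNA1A fell on day 7 in all 5 probes, by 3.06 in the brightest, and on day 1 in 1 of them (-1.11, with -0.75 in the brightest). CACNG1 was not called against sham on either day, and of the 2 CACNA2D1 probes 1 fell on day 1 (-1.43).

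Among entry channels, TRPC1, a cation channel subunit, fell in its brightest probe (-2.54 on day 1 and -1.33 on day 7). Its 4 probes all fell on both days, down to -5.53 on day 1 and -2.04 on day 7. STIM2, a calcium sensor of the store, was not well above background on any day 1 array. It was 2.52-fold lower there with low readings raised as for RYR2, and was not called on day 7 (1.13, adjusted p = 0.11). TRPC5 was not called on either day (0.17 and -0.56). Of the kinases, PRKG1, the cyclic GMP-dependent kinase, fell on both days (-3.37 and -3.29). CAMK2G fell by 2.29 on day 7 and stood at -0.98 on day 1, and neither CAMK2D (-0.52 and -0.59) nor CALM2 (-0.22 and -0.40) was called in its brightest probe. Of the 3 CALM2 probes 1 fell on both days (-1.08 and -1.35). For the brightest, 1 of the day 7 samples had no value and entered the fit as missing.

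**Figure D5:**
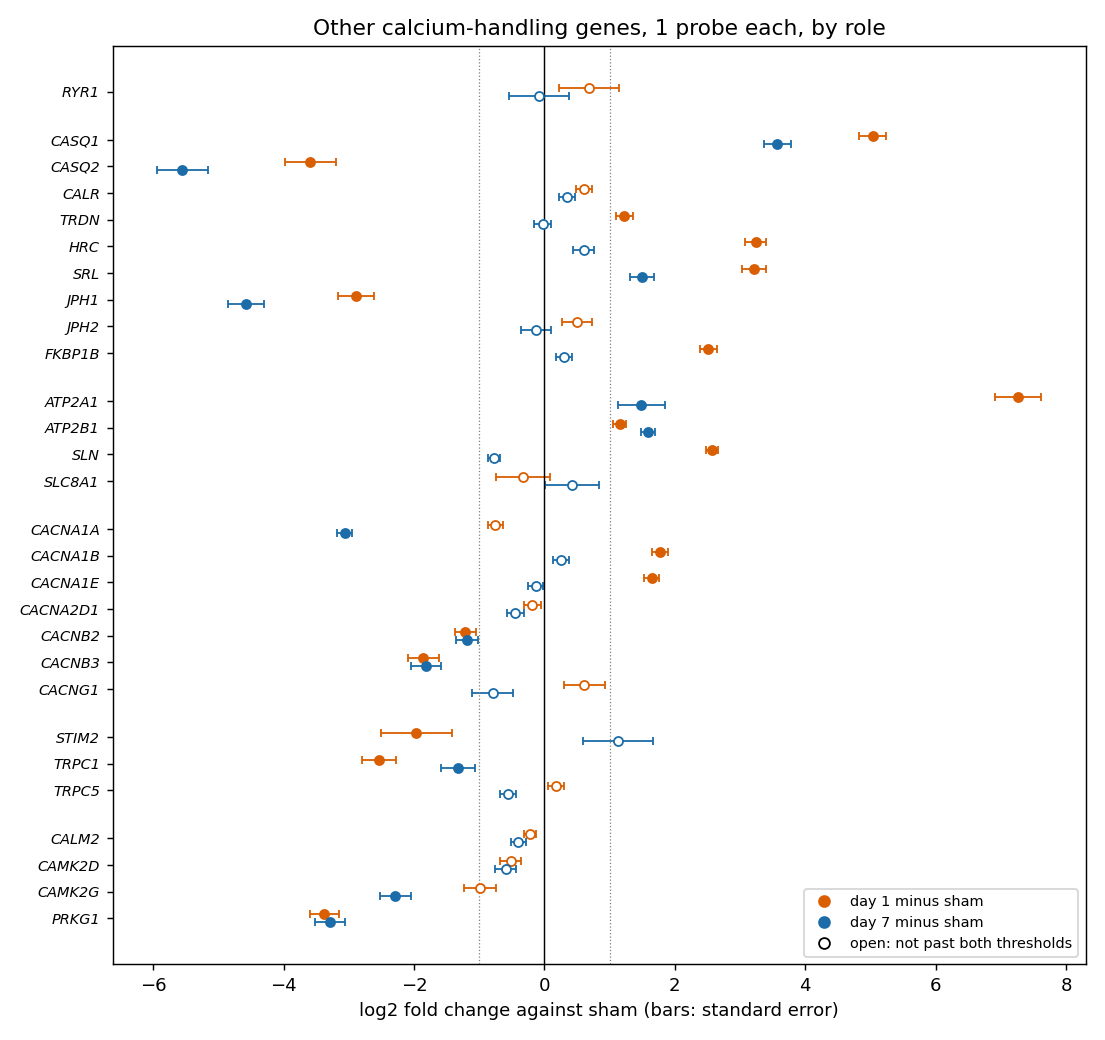
Log2 fold change against sham (horizontal axis, bars give the standard error) of 28 other calcium-handling genes on day 1 (orange) and day 7 (blue), 1 probe each, ordered by role. Filled points passed both thresholds and dotted lines mark the fold threshold; ATP2A1 and CASQ1 lie farthest to the right on day 1, and CASQ2 and JPH1 farthest to the left on day 7.

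Markers of cell types changed along with these genes. In bulk tissue, fewer cells of a type and less RNA per cell cannot be told apart. Of 12 smooth muscle markers 4 were tested, and their mean log2 value was 15.5 to 16.6 in sham, 12.8 to 12.9 on day 1 and 12.8 to 13.0 on day 7. MYH11, the smooth muscle myosin heavy chain, fell on both days (-5.33 and -6.49). ACTA2, smooth muscle actin, fell by 5.14 on day 1 and was not called on day 7 (-0.49, adjusted p = 0.0814). CALD1 (-1.62) and DES (-3.79) fell on day 7, and neither was called on day 1 (-0.28 and -1.85). All 4 were well above background on every array.

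The 8 tested of 18 striated muscle markers had a mean of 8.78 to 8.83 on day 1, 6.21 to 6.64 in sham and 6.34 to 6.45 on day 7. On day 1, 6 of the 8 rose, among them the skeletal muscle genes MYH1 by 5.15 and MYL1 by 5.28, while TNNC1 fell by 2.19 and RYR1 was not called. All 5 tested macrophage and neutrophil markers rose on both days, and their mean went from a range of 10.04 to 11.15 in sham to 15.6 to 15.7 on day 1 and 15.2 to 15.3 on day 7. All 3 tested fibroblast markers fell on day 1 and 1 on day 7, and 2 of 3 endothelial markers fell on both days. Both tested nerve markers fell on both days, and 1 of 3 adipocyte markers did. The defining markers KDR and ADIPOQ were not well above background on any day 1 array, and KDR and CKM on no day 7 array. The part of these markers in the results for the calcium genes was not tested.

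The named genes with the most similar course over the 8 samples were taken for the brightest probe of each gene, by the smallest root-mean-square difference of centred log2 values among 1880 genes. For RYR2 they were CTXN3 (0.21), CCN3 (0.41) and BMP4 (0.51). For RYR3 they were CASQ2 (0.21), JPH1 (0.27) and KCNJ8 (0.43), and 2 of these are among the store proteins above.

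For PLN the nearest genes were NPY1R (0.33), AGTR1 (0.37) and KCNAB1 (0.39), with log2 fold changes against sham of -4.73, -5.53 and -5.42 on day 1 and -4.52, -4.07 and -4.93 on day 7. For CACNA1C they included GNB5 (0.25) and TP53BP1 (0.26), with log2 fold changes of -4.33 and -4.27 on day 1 and -1.75 and -1.58 on day 7. For CACNB1 they were HLTF (0.07), TMEM237 (0.08) and PYURF (0.12), and for ATP2A2 SCN9A (0.09), AFTPH (0.10) and PPP1R11 (0.10).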

How the data were processed

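Signals of 16 one-colour arrays were used. The authors deposited scanner output with a processed signal intensity per spot, from which background had been taken off, beside the median signal, local background and quality flags (other, per the file headers), and log2 values normalized by quantiles and filtered in GeneSpring. The submitters' processing notes name Feature Extraction 9.1 and the file headers 11.0.1.1. The build in the headers is oryCun2.

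Control spots were removed (43603 probes left), flagged spots were set to missing (0.241%), log2 signals were quantile-normalized and spots of a probe averaged. Probes were kept if all arrays of 1 group or more had them well above background. Accessions were mapped to genes with RefSeq names for assembly mOryCun1.1 (3368 probes) or the EntrezGeneID of the transcript (2816 probes). Arrays whose differences had a variance of at most 1 times the spot noise were averaged by average linkage. One model of the 3 groups was fitted to all probes with lmFit and eBayes of limma 3.58.1 (R 4.3.3). The p-values are two-sided. Named are all probes of the 6 genes, all tested genes of the pathway list, the 3 genes nearest to each, and markers by count, with examples chosen after their values were seen. One of the nearest genes is not reported here. The genes and lists were chosen with earlier results of these data known. An array had 32973 to 36321 probes well above background, and the number of arrays limits the precision.

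Alternatives were scaling to the 75th percentile, the authors' values, normexp (offset 50), no filter, a filter on all 16 arrays, 16 separate arrays, sham arrays in pairs, the compared groups only, scan or replicate number as a block, 1 probe per gene, and each sample left out. Added after seeing the data were 1 sample per graft group with 2 sham samples, and leaving out either sham pair. In data simulated for 35763 probes, the fit recovered 70 of 100 changes of 1.5 and 91 of 100 changes of 3 (log2) for day 7 against sham. Only these probes were changed there, far fewer than were called in the data. The simulated noise followed the spread within groups, which may be technical. These rates therefore do not give the power of the calls reported here. Plots were made with matplotlib 3.10.9 under Python 3.11.15.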

Additional observations from a re-analysis of the deposited data

Results flagged for a closer look

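The ATP2A2 probe A_04_P062222 was selected because its day 1 and day 7 samples moved to opposite sides of sham and the difference between the days was itself called in limma. Its log2 fold change was -0.77 on day 1 and 1.80 on day 7, and the 2 differed by 2.57 (SE 0.17, adjusted p = 2.12e-05), with 2 of 2 samples on each side. The other 4 ATP2A2 probes had log2 fold changes of 0.82 to 1.19 on day 1 and 0.09 to 0.99 on day 7.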

How the results depend on the processing

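Over the alternatives, 1654 values of the 27 probes kept their direction and their side of the thresholds, 53 lost a call, 16 gained one and 11 turned sign. The first count includes values that stayed uncalled. It also includes alternatives that cannot alter a fold change, such as another filter or leaving out a sample of the group not compared. Under scaling to the 75th percentile, 8 differences between day 7 and day 1 turned sign, to -1.08 (RYR2 A_04_P099907, not well above background on either day), 0.10, 0.85 and 0.53 (ATP2A2 A_04_P000641, A_04_P000642 and A_04_P000643), -0.0144 and -0.0021 (PLN A_04_P005016 and A_04_P005017), and -0.0128 and -0.0379 (CACNB1 A_04_P002131 and A_04_P002132). With each sample left out in turn, RYR2 A_04_P099908 ran from -0.3752 to 0.0942 between the days, turning sign without day 1 sample 2 (0.0346) or day 7 sample 1, and ATP2A2 A_04_P000642 from -0.2367 to 0.18, turning without the latter. That scaling also moved the share of higher calls among all called probes from 50.6% to 64.0% on day 1 and from 52.8% to 34.1% between the days.

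With normexp, calls over all probes dropped from 17816 to 10430 on day 1, from 11757 to 6901 on day 7 and from 14281 to 7296 between the days. Calls of the 27 probes dropped from 23 to 18 on day 1, from 22 to 16 on day 7 and from 7 to 5 between the days. Calls of other calcium-handling genes dropped to 13 on day 1, 7 on day 7 and 9 between the days. With each graft group as 1 sample, 11 of the 27 probes and 5 of the 28 other genes were called on day 7, and 3271 of all probes. Between the days 0, 0 and 0 were called in limma, with 5, 12 and 12223 at an unadjusted p below 0.05. This alternative has fewer samples and takes its error from sham alone, and the cause of the other changes was not tested.

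Leaving out each sample in turn gave 20 to 23 calls of the 27 probes on day 7, 23 on day 1 and 5 to 7 between the days. For the other genes it gave 11 to 14, 17 to 18 and 14 to 16, and for all probes 10745 to 11846, 16922 to 17998 and 12840 to 14450. With the replicate number as a block, the 27 probes gave 21, 23 and 7 calls. Same-numbered arrays of different groups had correlations of -0.02 to 0.05 in their deviations from the group means. Within graft groups these deviations were near spot noise, so that the correlations cannot tell whether the numbers pair the arrays. Within graft groups the samples differed little beyond spot noise, and signals near background (CACNA1C, RYR2 A_04_P099907, CACNB1 A_04_P050637) limit the fold changes given.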
